A study of Homo sapiens with 12 samples.

Results

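The enzymes that build cholesterol and fatty acids from acetyl-CoA, together with the regulators of their transcription, were followed in HEL cells after knockdown of the tyrosine kinase JAK2. The set was named gene by gene with earlier results of these data known, so comparing it with all genes is description only. It held 30 genes, of which 29 had a probe set of their own among 11940 genes measured, and FDFT1 was not analysed here. HEL is a human leukaemia line that carries an activating mutation of JAK2, and all arrays came from this line. Cells received a lentiviral short hairpin RNA, in a puromycin-selectable pLKO vector, in 4 groups of 3 arrays: the JAK2 hairpins Jak2-9 and Jak2-10, and the controls Luc (a hairpin against luciferase) and GFP (a control construct that the titles list as an shRNA and the treatment text as a vector). No untransduced cells were among the arrays used here, and no time after transduction was stated. Replicates carry numbers only, and no source used here says whether each was its own culture, so the p-values reflect array-to-array spread that could be technical.

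Cholesterol synthesis runs from acetyl-CoA through mevalonate to isoprenoid diphosphates, then through squalene and lanosterol to cholesterol. Its genes share transcriptional control by the SREBP factors, which are held in the endoplasmic reticulum by SCAP and the INSIG proteins when sterols are plentiful and are released to the nucleus when sterols are scarce. Fatty acid synthesis starts from the same acetyl-CoA and is driven mainly by SREBP-1, the product of SREBF1, while SREBP-2, the product of SREBF2, acts mainly on the sterol branch. Dividing blood cell lines use both branches to build membranes.

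Values are RMA intensities on the linear scale, as the authors deposited them. Differences are log2 fold changes with their standard errors (SE) from 1 limma fit over all 12 arrays and 11940 genes, and a gene is said to have risen or fallen where its Benjamini-Hochberg adjusted p was under 0.05. JAK2 itself averaged 899.5 with Jak2-9 and 998 with Jak2-10, against 1506 in Luc and 1469 in GFP cells. Its log2 fold change was -0.75 with Jak2-9 (limma, adjusted p = 0.00768) and -0.58 with Jak2-10, where it did not pass (adjusted p = 0.0824) but did without Jak2-9 replicate 1 (0.00326). With both hairpins combined it fell by 0.67 (adjusted p = 0.00400). Of the markers fixed for HEL cells, 8 of 8 erythroid and 5 of 6 megakaryocytic genes measured were brighter than the median gene. This held for 1 of 5 lymphoid and 0 of 6 fibroblast or epithelial markers. The summed megakaryocytic intensity was 2379 to 3103 with Jak2-9 and 2139 to 2480 with Jak2-10. It was 2297 to 2701 in Luc and 2244 to 2343 in GFP cells, so only Jak2-9 and GFP did not overlap. Single megakaryocytic markers ran from -0.12 (ITGB3) to 0.48 (GP9) with Jak2-9, none past the threshold. The summed erythroid intensity ranged from 77312 to 79290 with Jak2-9 and from 74013 to 78022 with Jak2-10. It was 75677 to 77274 in Luc and 70464 to 78218 in GFP cells. All Jak2-9 arrays were thus just above all Luc arrays, while the other pairs of groups overlapped. The fetal globins HBG1 and HBG2 make up most of this erythroid sum. Among the 8 single markers HBZ, an embryonic globin, rose with Jak2-9 (0.62 ± 0.16, SE, limma adjusted p = 0.0455). Without Jak2-9 replicate 1 it was at 0.34 and did not pass (0.120). With Jak2-10 HBZ was at 0.35 (adjusted p = 0.832). For both hairpins combined HBZ was at 0.49 (0.0735), and without Jak2-9 replicate 1 it was at 0.35 and passed (0.0157). The other erythroid markers did not pass with Jak2-9: HBE1 was at 0.33, GATA1 at 0.30, EPOR at 0.29 and KLF1 at 0.28. HBG2 was at 0.08, HBG1 at 0.05 and TFRC at -0.13. Without Jak2-9 replicate 1, HBE1 was at 0.24, GATA1 at 0.19, EPOR at 0.36 and KLF1 at 0.11. The part of these markers in the lipid gene results was not tested. The summed lymphoid intensity was 623 to 699 with Jak2-9 and 608 to 627 with Jak2-10, against 559 to 685 in Luc and 585 to 646 in GFP cells. Here all groups overlapped. The bulk RNA cannot separate a change in the share of cells from a change in RNA per cell. On Jak2-9 replicate 1, 253 genes lay more than 2-fold away from the average of its group mates, against at most 13 on any other array of the series relative to its own group; 0 of the 29 lipid genes did so on any array.

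With both hairpins combined, 2 of the 29 lipid genes rose and 0 fell (6.90% higher), against 0.436% of all genes higher and 1.39% lower, or 1.83% in either direction. The risen genes were MVD and DHCR7. Both calls ended when the hairpin or control vector was a random block (limma, adjusted p = 0.0511 for MVD and 0.0506 for DHCR7), against Luc alone (0.116 and 0.251) and against GFP alone (0.115 and 0.0701). The median log2 fold change of the 29 was 0.09, against 0.04 over all genes, and 24 of 29 lay above 0 (82.8%, against 63.5% of all genes). No member had all 6 hairpin arrays on one side of all 6 control arrays, a separation that 2.71% of all genes showed. At an unadjusted p under 0.05, 7 members were higher and 0 lower (24.1%, against 10.5% of all genes higher). The 7 were MVD, DHCR7, PMVK, TM7SF2, NSDHL, MVK and EBP, and all of them act in the sterol branch.

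With Jak2-9 alone, MVD and DHCR7 were again the members that rose, 2 of 29 (6.90% higher, against 1.6% of all genes higher, 1.47% lower and 3.07% in either direction). The median was 0.16 over the members and 0.06 over all genes, and 24 of 29 members lay above 0, against 63.7% of all genes. At an unadjusted p under 0.05, 12 members were higher (41.4%, against 17% of all genes) and 0 lower; without Jak2-9 replicate 1, 7 were higher (24.1%, against 8.32%). In 5 members, MVD, DHCR7, TM7SF2, PMVK and MVK, all 3 Jak2-9 arrays lay above all 6 control arrays, which is 17.2% of members, against 9.41% of all genes. With Jak2-10 alone, 0 of 29 members passed (limma), where 0.0419% of all genes rose and 0.645% fell (0.687% together); DHCR7 was higher and SREBF1 lower at an unadjusted p under 0.05 (limma), where 2.65% of all genes were higher and 3.11% lower. The median with Jak2-10 was 0.06, against 0.02 over all genes, with 22 of 29 members above 0, against 56.6% of all genes. In 0 members did the Jak2-10 arrays lie apart from all controls, as they did in 5.28% of all genes. Both hairpins were set against the same 6 control arrays, so these comparisons are not independent of each other.

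**Figure D1:**
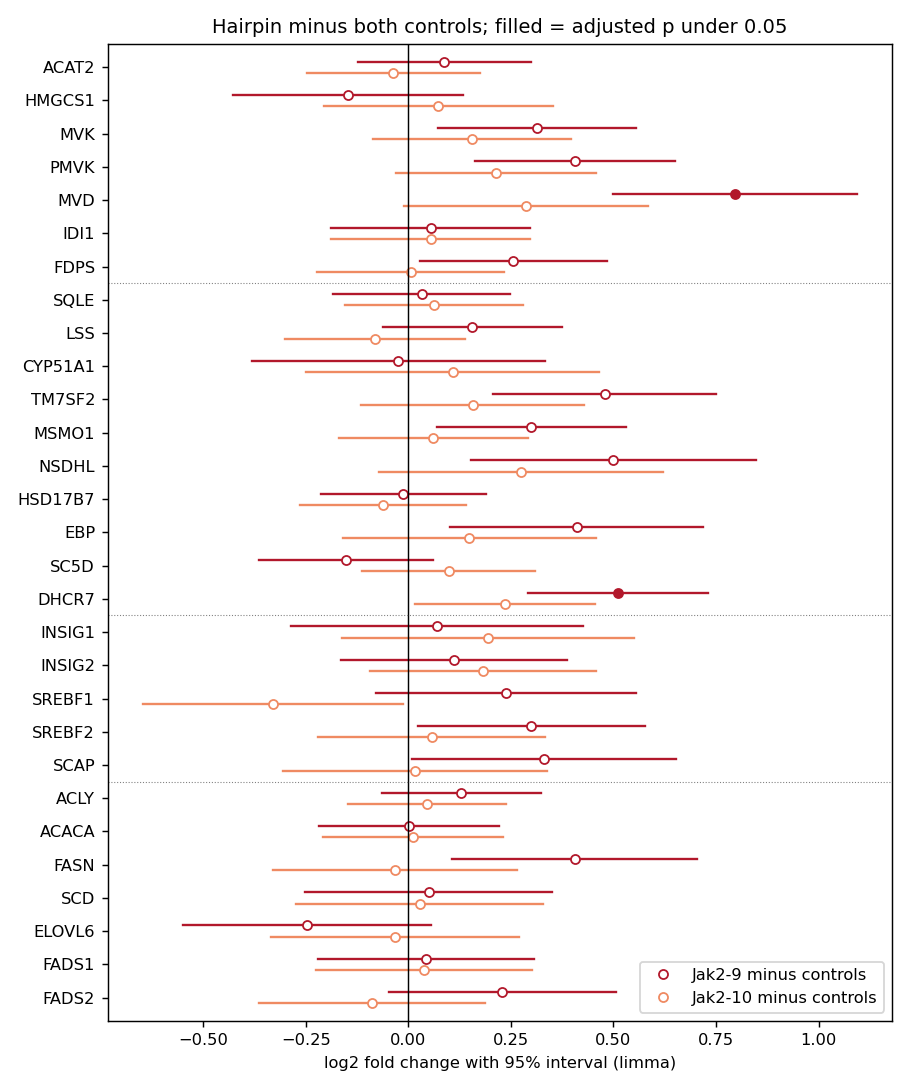
Log2 fold change of each of the 29 members (rows, dotted lines divide the roles) for Jak2-9 (dark red) and Jak2-10 (orange) against both controls, with 95% intervals from limma. MVD and DHCR7 with Jak2-9 are the only filled points, those with an adjusted p under 0.05; the Jak2-10 point of MVD lies at 0.29 and that of DHCR7 at 0.24.

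The 7 genes that lead from acetyl-CoA to farnesyl diphosphate had a median of 0.26 with Jak2-9 and 0.07 with Jak2-10. MVD, which decarboxylates mevalonate diphosphate to isopentenyl diphosphate, read 118, 79.8 and 79.6 with Jak2-9 and 61.1, 75.5 and 56.3 with Jak2-10, against 60.6, 49.7 and 50.1 in Luc and 54.5, 55.1 and 44.9 in GFP cells. All Jak2-9 arrays were above every control array, replicate 1 highest, while Jak2-10 replicate 2 lay clearly above all controls, replicate 1 just above the highest of them and replicate 3 among them. The log2 fold change was 0.80 ± 0.14 (SE) with Jak2-9, or 1.74-fold (limma, adjusted p = 0.00644), and 0.29 ± 0.14 with Jak2-10 (adjusted p = 0.881). Its intensity was low: on the control arrays, at 44.9 to 60.6, it was close to the array medians of 44.9 to 49.1. Without Jak2-9 replicate 1 MVD was at 0.61 with Jak2-9 and still passed (adjusted p = 0.0164), and it passed on leaving out each of the 12 arrays. For both hairpins together it was at 0.54 ± 0.11 (adjusted p = 0.0216), a call that ended without Jak2-10 replicate 2 (adjusted p = 0.0698), Luc replicate 2 (0.0751), Luc replicate 3 (0.0695), GFP replicate 1 (0.0501) or GFP replicate 3 (0.0695).

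PMVK and MVK, the kinases that act just before MVD, were higher in the same arrays without passing the threshold. PMVK had 938, 694 and 694 with Jak2-9 and 717, 699 and 603 with Jak2-10, against 536, 554 and 614 in Luc and 671, 565 and 546 in GFP cells. Its fold change with Jak2-9 was 0.41 ± 0.11 (limma, adjusted p = 0.0612), and it was 0.26 (adjusted p = 0.280) without Jak2-9 replicate 1. It passed without Jak2-9 replicate 2 (0.0451) or 3 (0.0351). MVK, which makes mevalonate phosphate, had 105, 109 and 106 with Jak2-9 and 107, 95.5 and 85.4 with Jak2-10, against 82.7, 76.5 and 102 in Luc and 82.3, 99.4 and 75.8 in GFP cells. The 3 Jak2-9 arrays lay close together and above all controls, with a log2 fold change of 0.31 ± 0.11 (adjusted p = 0.119).

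HMGCS1, which makes the HMG-CoA that feeds the pathway and is a standard SREBP target, did not pass in any comparison. It read 735, 1040.2 and 862 with Jak2-9 and 1149.7, 1119.8 and 811 with Jak2-10, against 920.0, 1109 and 1060.2 in Luc and 834, 981 and 908 in GFP cells. The groups overlapped, and the lowest of all 12 arrays was Jak2-9 replicate 1. The log2 fold change was -0.15 ± 0.13 with Jak2-9 and 0.07 ± 0.13 with Jak2-10, neither past the threshold. Its other 2 probe sets lay at -0.56 ± 0.30 and -0.59 ± 0.32 (SE) with Jak2-9, with adjusted p-values of 0.288 and 0.299 over 19415 probe sets. IDI1, which isomerises isopentenyl diphosphate, was at 0.05 and 0.05 with Jak2-9 and Jak2-10; its probe set is of the class that can cross-hybridise. ACAT2, the cytosolic thiolase that makes acetoacetyl-CoA, was at 0.09 and -0.04, and FDPS, the farnesyl diphosphate synthase, at 0.26 and 0.01. None of these passed.

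**Figure D2:**
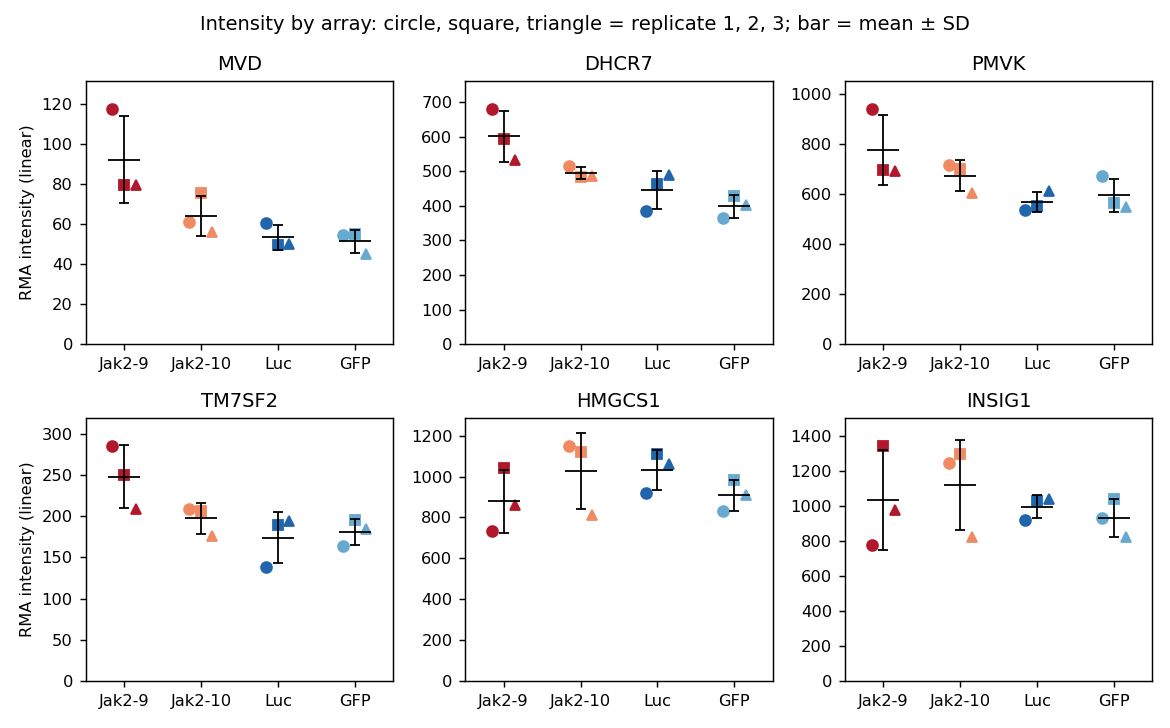
RMA intensity (linear, axis from 0) of 6 members by group, with 1 symbol per replicate and the mean ± SD of 3 arrays. MVD, DHCR7, PMVK and TM7SF2 have all Jak2-9 arrays above all Luc and GFP arrays, whereas HMGCS1 and INSIG1 overlap between all groups.

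Of the 10 measured enzymes between squalene and cholesterol, 1 rose with Jak2-9 (10.0%, against 1.6% of all genes) and 0 passed with Jak2-10 (limma, against 0.0419% of all genes higher); the median was 0.23 with Jak2-9 and 0.10 with Jak2-10. DHCR7 reduces 7-dehydrocholesterol to cholesterol and had 679, 592 and 533 with Jak2-9 and 515, 483 and 486 with Jak2-10, against 384, 464 and 489 in Luc and 364, 428 and 403 in GFP cells. The Jak2-9 arrays were all above the controls, and the Jak2-10 arrays, close to each other, lay around the top of the control range. The log2 fold change was 0.51 ± 0.10 with Jak2-9, or 1.43-fold (limma, adjusted p = 0.0168), and 0.24 ± 0.10 with Jak2-10 (adjusted p = 0.800). The second DHCR7 probe set gave 0.58 ± 0.11 with Jak2-9 (adjusted p = 0.0120 over 19415 probe sets). Without Jak2-9 replicate 1 the brighter probe set was at 0.42 and missed the threshold (adjusted p = 0.0649). For both hairpins together DHCR7 was at 0.37 ± 0.08 (adjusted p = 0.0339). That call ended on leaving out any of 9 arrays: Jak2-9 replicate 2 (adjusted p = 0.0504), Jak2-10 replicates 1 (0.0982), 2 (0.0726) and 3 (0.0681), Luc replicates 1 (0.0892) and 2 (0.0681), and GFP replicates 1 (0.115), 2 (0.0519) and 3 (0.0721).

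TM7SF2, a sterol reductase that acts after lanosterol demethylation, read 285, 249 and 209 with Jak2-9 and 209, 207 and 176 with Jak2-10, against 138, 189.6 and 194 in Luc and 164, 195 and 184 in GFP cells. Jak2-9 arrays lay above all controls, and the fold change of 0.48 ± 0.13 fell just short of the threshold (limma, adjusted p = 0.0538); it was 0.37 (0.222) without Jak2-9 replicate 1 and 0.60 (0.0210) without Jak2-9 replicate 3. NSDHL, which removes the methyl groups of lanosterol derivatives, had 300.3, 199 and 157 with Jak2-9 and 204, 176 and 163 with Jak2-10, against 158, 132 and 139 in Luc and 159, 136 and 177 in GFP cells. Replicate 1 of Jak2-9 was the highest of all 12 arrays, and the difference of 0.50 ± 0.16 was 0.25 (adjusted p = 0.437) without it and 0.71 (0.0169) without replicate 3.

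EBP, the sterol isomerase, read 1393, 824 and 879.6 with Jak2-9 and 882, 902 and 737 with Jak2-10, against 796, 727 and 691 in Luc and 839.9, 794 and 696 in GFP cells. Jak2-9 replicate 1 was far above the rest and replicate 2 among the controls. The fold change of 0.41 ± 0.14 with Jak2-9 did not pass (adjusted p = 0.112); without replicate 1 it was 0.17 (0.525), and without replicate 2 it was 0.55 and passed (0.0465). A second EBP probe set was at 0.41 ± 0.10 with Jak2-9 (adjusted p = 0.0469 over 19415 probe sets) and the third at 0.21 ± 0.08 (0.140). MSMO1, the monooxygenase that starts removal of the methyl groups, was at 0.30 ± 0.11 with Jak2-9 and 0.06 ± 0.11 with Jak2-10.

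The enzymes nearest to squalene had small differences, none past the threshold. SQLE, the squalene epoxidase, was at 0.03 ± 0.10 with Jak2-9 and 0.06 ± 0.10 with Jak2-10, and LSS, which closes the sterol rings, at 0.16 ± 0.10 and -0.08 ± 0.10. CYP51A1, the lanosterol demethylase, spread widely with Jak2-9, at 396, 782 and 606, beside 692, 656 and 544 with Jak2-10, against 524, 651 and 627 in Luc and 512, 567 and 627 in GFP cells. Jak2-9 replicate 1 was the lowest and replicate 2 the highest of all 12 arrays. HSD17B7, a sterol ketone reductase with a near-identical pseudogene, so uncertain as to the copy, was at -0.01 and -0.06. SC5D, a sterol desaturase, was at -0.15 with Jak2-9 and 0.10 with Jak2-10. Its probe set was dim, with Jak2-9 arrays at 40.8, 40.5 and 41.3, below the array medians.

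Promoter sequence was examined for the genes that rose and for a pair of standard SREBP targets that did not. The 250 bases before each gene's start were read from the RefSeq table (GRCh38.p14), which held 26 of the 29 members (not ACAT2, SQLE and FASN). The windows of MVD (chr16:88663092-88663341, minus strand) and DHCR7 (chr11:71448394-71448643, minus strand) are shown because these genes rose, and those of HMGCS1 (chr5:43313413-43313662, minus strand) and INSIG1 (chr7:155297628-155297877, plus strand) for comparison. Each is written 5′ to 3′ on the gene's strand, with capitals for CCAAT, the box bound by NF-Y, and for GGGCGG, the GC box bound by Sp1, on either strand.
MVD: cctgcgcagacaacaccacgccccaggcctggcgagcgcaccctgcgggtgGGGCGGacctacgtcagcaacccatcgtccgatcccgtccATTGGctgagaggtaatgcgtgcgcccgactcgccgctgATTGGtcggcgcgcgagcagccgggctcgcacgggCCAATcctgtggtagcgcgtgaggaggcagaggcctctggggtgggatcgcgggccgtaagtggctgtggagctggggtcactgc
DHCR7: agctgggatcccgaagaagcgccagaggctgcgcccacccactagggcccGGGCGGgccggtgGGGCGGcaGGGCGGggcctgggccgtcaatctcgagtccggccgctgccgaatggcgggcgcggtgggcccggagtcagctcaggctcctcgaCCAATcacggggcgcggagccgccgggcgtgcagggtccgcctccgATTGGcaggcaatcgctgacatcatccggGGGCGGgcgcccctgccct
HMGCS1: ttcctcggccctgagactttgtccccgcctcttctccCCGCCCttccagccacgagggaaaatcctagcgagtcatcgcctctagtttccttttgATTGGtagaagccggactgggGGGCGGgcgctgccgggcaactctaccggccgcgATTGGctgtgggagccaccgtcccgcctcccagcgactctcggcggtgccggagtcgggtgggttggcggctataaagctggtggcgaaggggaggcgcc
INSIG1: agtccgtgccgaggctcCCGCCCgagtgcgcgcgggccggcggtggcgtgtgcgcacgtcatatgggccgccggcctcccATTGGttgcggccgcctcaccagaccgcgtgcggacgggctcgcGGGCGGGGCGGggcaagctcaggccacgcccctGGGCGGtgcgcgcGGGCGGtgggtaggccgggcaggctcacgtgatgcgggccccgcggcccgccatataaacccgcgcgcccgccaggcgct
MVD holds 3 CCAAT boxes and 1 GC box, DHCR7 holds 2 and 4, HMGCS1 2 and 2, and INSIG1 1 and 5. Among all 26 members 16 windows held CCAAT (61.5%), against 35.8% of 9592 windows of measured genes and 32.0% of all 35116 windows. The GC box was in 24 of 26 (92.3%), against 60.5% and 42.6%. The letters TCACNCCAC, a strict form of the sterol regulatory element, were in 1 member's window, that of SREBF2 (3.85%, against 0.844% and 0.883%). These are letter matches, which do not show binding, and both boxes were present in genes that rose and in genes that did not.

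The regulators of the pathway held 0 of 5 past the threshold in any comparison. Of all genes 1.83% passed with both hairpins combined, 3.07% with Jak2-9 and 0.687% with Jak2-10, so 0 of 5 is close to these shares. SREBF1 read 136, 98.6 and 87.1 with Jak2-9 and 82.8, 61.6 and 70.6 with Jak2-10, against 107, 78.3 and 86.2 in Luc and 98.5, 92.2 and 77.3 in GFP cells. The hairpin means lay on opposite sides of the control mean, all Jak2-10 arrays below all Jak2-9 arrays, with log2 fold changes of 0.24 ± 0.15 with Jak2-9 and -0.33 ± 0.15 with Jak2-10. The test of the difference itself gave -0.57 ± 0.17 for Jak2-10 minus Jak2-9 (unadjusted p = 0.00495 by limma, adjusted p = 0.499), and -0.38 (adjusted p = 0.931) without Jak2-9 replicate 1. SREBF2 was at 0.30 ± 0.13 with Jak2-9 and 0.06 ± 0.13 with Jak2-10.

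SCAP, the escort protein of the SREBPs, stood at 624, 318 and 407 with Jak2-9 and 352, 345 and 345 with Jak2-10, against 352, 312 and 352 in Luc and 343, 357 and 347 in GFP cells. Its difference of 0.33 ± 0.15 with Jak2-9 rested on replicate 1 and was 0.07 without it; without Jak2-9 replicate 2 it was 0.55 and passed (limma, adjusted p = 0.0314). INSIG1, which retains SCAP in the endoplasmic reticulum and is itself an SREBP target, had 779, 1343 and 978 with Jak2-9 and 1244, 1294 and 824 with Jak2-10, against 918, 1030.5 and 1041 in Luc and 934, 1040.4 and 819.9 in GFP cells. Jak2-9 replicate 1 lay below all controls, while Jak2-9 replicate 2 and Jak2-10 replicates 1 and 2 lay above them, and the fold changes were 0.07 ± 0.17 and 0.19 ± 0.17. INSIG2 was at 0.11 ± 0.13 with Jak2-9 and 0.18 ± 0.13 with Jak2-10.

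Fatty acid synthesis and desaturation genes held 0 of 7 past the threshold. That is close to the share of all genes, 3.07% with Jak2-9 and 0.687% with Jak2-10. Their median was 0.05 with Jak2-9 and 0.01 with Jak2-10, beside 0.06 and 0.02 over all genes. FASN, the fatty acid synthase, read 1236, 791 and 839 with Jak2-9 and 718, 694 and 662 with Jak2-10, against 590.1, 751 and 815 in Luc and 638, 689 and 785 in GFP cells. Its fold change was 0.41 ± 0.14 with Jak2-9 (limma, adjusted p = 0.106; 0.20 without replicate 1) and -0.03 ± 0.14 with Jak2-10. ACLY, which makes cytosolic acetyl-CoA from citrate, was at 0.13 and 0.05, and ACACA, the carboxylase that makes malonyl-CoA, at 0.00 and 0.01. A second, dimmer ACACA probe set differed from the first, at 0.52 ± 0.14 with Jak2-9 (adjusted p = 0.0593 over 19415 probe sets). The stearoyl-CoA desaturase SCD was at 0.05 and 0.03, the elongase ELOVL6 at -0.25 and -0.03, and the desaturases of polyunsaturated fatty acids, FADS1 and FADS2, at 0.04 and 0.23 with Jak2-9 and 0.04 and -0.09 with Jak2-10.

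The hairpins were then compared with each other. For Jak2-10 minus Jak2-9, 0 of 29 members passed (limma; background 0%), with 1 higher and 5 lower at an unadjusted p under 0.05, against 2.5% and 7.33% of all genes. The 5 lower were SREBF1, MVD (-0.51 ± 0.16), FASN (-0.44 ± 0.16), DHCR7 (-0.28 ± 0.12) and TM7SF2 (-0.32 ± 0.15), and the higher one was SC5D (0.25 ± 0.11); all 6 had an adjusted p of 0.499. The arrays of the hairpins did not overlap in SC5D, higher with Jak2-10 (3.45%, against 2.98% of all genes), and in SREBF1, MVD, FASN and DHCR7, lower with Jak2-10 (13.8%, against 8.74%). The 95% interval for MVD ran from -0.85 to -0.16. Between the control groups, Luc minus GFP, 0 of 29 members passed and 0 did so at an unadjusted p under 0.05 (limma, 1.92% of all genes did). Without Jak2-9 replicate 1 in the shared fit, 4 members were higher at that cut (13.8%, against 2.01% of all genes) and 0 lower. Of the 29, 19 lay above 0 in Luc minus GFP (65.5%, against 44.8% of all genes), so a lean upward also separated the controls. The member median was 0.03, against -0.01 over all genes. The Luc arrays lay above the GFP arrays in 3 members, LSS, INSIG2 and FADS1 (10.3%, against 3.58% of all genes), and the largest of the 29 differences was that of INSIG2, 0.30 ± 0.15.

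Part of the spread among members followed single arrays. Jak2-10 replicate 3 was below the mean of the other Jak2-10 arrays in 29 of 29 members, by a median of 0.27 on the log2 scale, where 67.9% of all genes were below with a median of 0.10. INSIG1 (-0.62), FADS2 (-0.53) and HMGCS1 (-0.49) deviated most there, and SCAP, SREBF1 and DHCR7 least (-0.02, -0.02 and -0.04). Without that array the member median was 0.15 with Jak2-10, in place of 0.06, with 26 of 29 above 0 (89.7%). Over all genes the median was then 0.04, in place of 0.02, with 66.0% above 0. MVD was then at 0.38 and DHCR7 at 0.25 with Jak2-10. Still 0 members passed (limma), where 0 of all 11940 genes rose and 26 fell. The Jak2-10 median moved to 0.01 without Jak2-10 replicate 1, to 0.00 without Jak2-10 replicate 2, and to 0.03 without Luc replicate 1. With both hairpins together it was 0.16 without Jak2-10 replicate 3 and 0.05 without Jak2-10 replicate 2. In Jak2-10 minus Jak2-9 the median of -0.16 became -0.08 when either Jak2-10 replicate 3 or Jak2-9 replicate 1 was left out, and -0.24 when Jak2-10 replicate 1 was.

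Jak2-9 replicate 1 divided the set instead. Relative to the other Jak2-9 arrays 17 members were higher and 12 lower there. SCAP (0.79), NSDHL (0.76), EBP (0.71), FASN (0.60), MVD (0.56), SREBF1 (0.55) and SREBF2 (0.54) were highest, and CYP51A1 (-0.80), ELOVL6 (-0.72), INSIG1 (-0.56), SCD (-0.55), FADS1 (-0.51), INSIG2 (-0.50) and HMGCS1 (-0.37) lowest. JAK2 was also lowest on this array, at 661 against 952 and 1086 on the other Jak2-9 arrays. Whether array quality has a part in this division was not tested. Without this array the member median with Jak2-9 was still 0.16, and MVD alone passed, 1 of 29 (3.45%, against 0.302% of all genes higher and 1.31% in either direction). For both hairpins combined MVD and DHCR7 still passed without it (6.90%, against 0.628% of all genes higher and 2.27% in either direction), and with Jak2-10 alone 0 members passed (limma, against 1.25% of all genes in either direction).

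**Figure D3:**
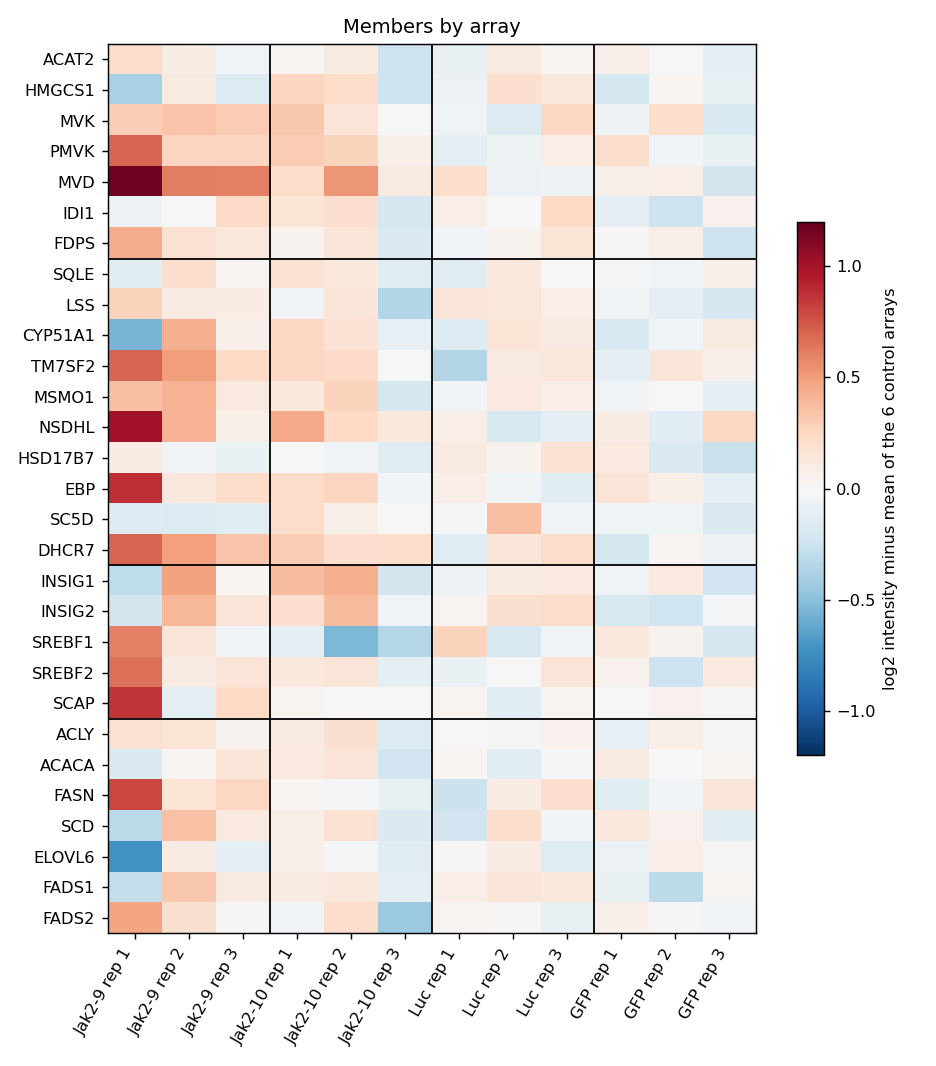
Log2 intensity of each member (rows, lines divide the roles) on each array (columns), minus the mean of the 6 control arrays. Jak2-9 replicate 1 holds both the strongest red (MVD, 1.17) and the strongest blue (ELOVL6, -0.73). The Jak2-10 replicate 3 column is paler or blue where the other Jak2-10 arrays are both red, except in DHCR7 (0.21, beside 0.29 and 0.20).

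**Figure D4:**
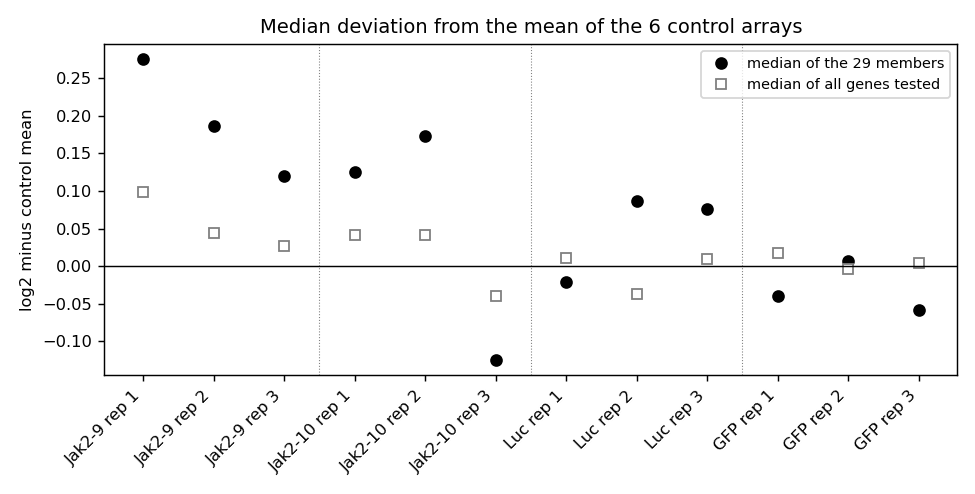
Median deviation of the 29 members (filled circles) and of all 11940 genes (open squares) from the mean of the control arrays, for each array. The members lie between 0.12 and 0.28 on 5 of the 6 hairpin arrays and at -0.12 on Jak2-10 replicate 3, against -0.06 to 0.09 on the control arrays.

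The dimmer probe sets gave a check on the choice of the brightest. Of the members, 18 had further probe sets, 27 in all, and 24 of the 27 had the sign of the brightest with Jak2-9 and 21 of 27 with Jak2-10. Their median was 0.14 with Jak2-9 and 0.13 with Jak2-10, beside 0.10 and 0.06 for the brightest probe sets of the same genes. Probe sets of 1 gene share its RNA and arrays, so they are not replicates.

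Other genes of lipid metabolism, 55 on lists chosen with earlier results of these data known and 38 of them measured, held 1 that rose and 1 that fell with both hairpins combined (of all genes 0.436% rose and 1.39% fell). SLC25A1, the mitochondrial citrate carrier that supplies ACLY, averaged 284 with Jak2-9 and 224 with Jak2-10, against 174 in Luc and 179 in GFP cells; it rose (0.50 ± 0.12, SE, limma adjusted p = 0.0447) and with Jak2-9 alone was at 0.66 (adjusted p = 0.0252; 0.46 and 0.0937 without Jak2-9 replicate 1). SCD5, a second stearoyl-CoA desaturase, averaged 34.2 with Jak2-9 and 34.6 with Jak2-10, against 45.5 in Luc and 40.3 in GFP cells, close to or below the array medians, and fell with both hairpins combined (-0.32 ± 0.08, adjusted p = 0.0461). The 7 measured genes of the sterol branch outside the 29, among them those of the isoprenoid side branches, held 0 past the threshold in any comparison. Across the comparisons 0% to 3.07% of all genes passed.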

How the data were processed

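Gene expression was measured on 12 Affymetrix arrays, 4 groups of 3, after amplification of 20 ng of total RNA per sample. The authors deposited intensity values on a linear scale, processed by RMA per the submitters' processing notes, with the version and genome build not given in the sources used here. Intensities ran from 11.2 to 36233.5, and precision is limited by how many arrays there are. The table held 22930 probe sets: 524 were controls, 19415 had 1 gene symbol in the platform annotation, 125 several and 2866 none; of the 19415, 19290 matched the RefSeq gene table and 0 symbols changed.

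The log2 of the deposited intensities was taken, the probe set with the highest mean log2 value was kept per gene, and 11940 genes were fitted with limma 3.58.1 (R 4.3.3; lmFit and eBayes on 4 group means, contrasts of both hairpins, each hairpin, the hairpins and the controls). Adjusted p-values are Benjamini-Hochberg over 11940 genes within each of the 5 comparisons, with a threshold of 0.05, two-sided. The fit was tested on simulated data. All 30 members were to be named whether or not they passed, and of other pathway genes those that passed. Members and lists were chosen with earlier results of these data known. Alternatives covered scaling, probe set choice, dim genes, variance models, controls, blocks and each array left out. Promoter motifs were searched on both strands with Python 3.11.15.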

Additional observations from a re-analysis of the deposited data

How the results depend on the processing

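Among the 4 called member comparisons (MVD and DHCR7, both hairpins together and Jak2-9 alone), 60 of 84 alternative values kept the call, 24 lost it and 0 reversed; of 2874 values for the 141 others, 14 passed and 172 changed sign without a call. For both hairpins together, the 2 members called became 1 with the replicate number as a block (DHCR7 lost) and 1 with quantile normalization, 4 with array weights (NSDHL and INSIG2 added), 0 against GFP alone, 0 against Luc alone, and 0 with the hairpin or control vector as a random block (MVD adjusted p = 0.0511, DHCR7 0.0506, limma). Leaving out 1 array gave 0 to 3, the 3 without Jak2-9 replicate 3. With Jak2-9, the 2 became 4 with the mean of all probe sets, 1 with only the arrays compared, and 1 (without Jak2-9 replicate 1) to 5 (without Jak2-9 replicate 2 or 3) on leaving out 1 array. The Jak2-10 minus Jak2-9 member median of -0.16 was -0.029 with array weights. In these cases the cause was not tested. Where arrays were left out, the fit also had fewer of them, and the part of that was not tested either.

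Over all genes, the 218 calls for both hairpins were 540 with array weights, 76 against GFP alone and 131 (without GFP replicate 1) to 352 (without Jak2-9 replicate 3). The 367 with Jak2-9 were 157 with only the arrays compared and 156 (without Jak2-9 replicate 1) to 1309 (without Jak2-9 replicate 3). The 82 with Jak2-10 were 47 with the replicate block, 193 with array weights, 132 with only the arrays compared and 26 (without Jak2-10 replicate 1 or 3) to 149 (without Jak2-9 replicate 1), and the 0 for Luc against GFP were 2 with array weights and 0 to 1 without 1 array. Same-numbered arrays did not deviate together (r from -0.12 to 0.18 over 18 pairs, 5 above 0.1), so the numbers were not taken to pair samples. Detection calls were not used, so signal over background was not assessed for low-intensity probe sets such as those of MVD and SC5D.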

Other observations

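Cholesterol uptake, transport and storage genes, 8 of 12 listed and measured, had a median log2 fold change of 0.19 with Jak2-9 and 0.04 with Jak2-10, against medians over all genes of 0.06 and 0.02. The LXR receptors and efflux genes, 4 of 5 measured, were at 0.25 and 0.04, and 6 genes of SREBP processing and sterol sensing at 0.12 and 0.05. None of these 18 genes passed the threshold in any of the 5 comparisons, in which 0% to 3.07% of all genes passed. The remaining lists did not lean upward with Jak2-9. Their 7 measured sterol branch genes had a median of 0.01 with Jak2-9 and 0.02 with Jak2-10. Their 13 measured fatty acid branch genes had medians of -0.10 and -0.01. With Jak2-9, 4 of the 7 and 5 of the 13 lay above 0. Over all 38 measured genes on the lists the medians were 0.07 and 0.02.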
